A study of Rattus norvegicus with 3 samples.

Results

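Heat shock proteins and heme oxygenase are genes that cells use to cope with damaged proteins and oxidative injury, and 10 of them were followed here in the rat vestibular nuclei, the brainstem cell groups that process balance signals. The genes were Hspa1a, Hspa5, Hspa8, Hsph1, Hsp90aa1, Dnajb1, Hspb1, Hspb8, Cryab and Hmox1. They were chosen by name, out of 8899 genes that could be named on the array through a RefSeq accession, and every probe carrying a member's accession was used. This gave 16 probes for 9 of the 10 genes, of which 3 probes lay on 10 spots and 13 on 1 spot. Dnajb1, a co-chaperone of the HSP70 family, was matched to no probe and has no value here.

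The study followed vestibular compensation, the recovery of balance after the inner ear of 1 side is lost. It compared vestibular nuclei ipsilateral to a left labyrinthectomy, taken 1 day or 7 days after the operation, with control nuclei. The animals were male Sprague-Dawley adults of 200 to 250 g, with 3 rats and 1 array per group. The RNA of the 3 rats was therefore most likely combined. The control, called sham below, is a sham operation by the sample labels and normal rats by the protocol text, and neither names the side it was taken from. With 1 array per group there is no replicate error and no test of the conditions, and every difference below describes 2 arrays.

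HSP70 proteins bind unfolded stretches of other proteins and release them in cycles driven by ATP. J-domain co-chaperones such as Dnajb1 start the cycle, HSP110 proteins such as Hsph1 reset it, and HSP90 takes over clients that need late folding steps. Small heat shock proteins hold unfolding proteins without ATP until the others arrive. The cytosolic members are switched on by the transcription factor HSF1, which binds repeated GAA units in alternating orientation (the heat shock element). Hspa5 instead serves the endoplasmic reticulum and answers to the unfolded protein response, and Hmox1, which breaks heme down to biliverdin, iron and carbon monoxide, is switched on by NRF2 through the antioxidant response element.

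Promoter windows from 250 bases before to 50 bases after the annotated start were at hand for 7 of the 10 genes, from RefSeq on the GRCr8 build. Of these, 4 that hold letters of the elements named above are shown. Hspb8 and Dnajb1 also hold a heat shock core but are not printed. The heat shock core was searched as GAANNTTC or TTCNNGAA, each its own reverse complement. The 3-unit form is TTCNNGAA and GAANNTTC sharing their GAA, searched on both strands, so each match also counts as both cores. A core was found in 5 of the 7 windows (Hspa8, Hsph1, Hspb1, Hspb8 and Dnajb1), against 15.9% of all 33469 promoter windows, and the 3-unit form in Hspa8 and Hsph1, against 0.798% of all windows. The endoplasmic reticulum stress element, CCAAT and CCACG with 9 bases between them on both strands, was found only in Hspa5 among the 7 windows, 43 bases before the start, and in 0.0657% of all windows. None of the heat shock or stress element letters was found in the Hspa1a window, which says only that they are not in these bases. The antioxidant core TGANNNNGC was too common to set windows apart (40.5% of all windows) and occurred in Hspa5 and Dnajb1. Capitals below mark heat shock cores, or in Hspa5 the stress element. The windows lie at chr12:10427118-10427417, plus strand (Hsph1), chr8:50080264-50080563, plus strand (Hspa8), chr12:26432252-26432551, minus strand (Hspb1) and chr3:38452766-38453065, plus strand (Hspa5), and each is written 5′ to 3′ on the gene's strand.
Hsph1: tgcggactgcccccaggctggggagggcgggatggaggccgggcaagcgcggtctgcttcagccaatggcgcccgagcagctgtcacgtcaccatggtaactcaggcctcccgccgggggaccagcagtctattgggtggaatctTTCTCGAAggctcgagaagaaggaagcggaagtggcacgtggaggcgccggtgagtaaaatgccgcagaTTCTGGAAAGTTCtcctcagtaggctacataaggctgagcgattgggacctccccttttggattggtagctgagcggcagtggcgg
Hspa8: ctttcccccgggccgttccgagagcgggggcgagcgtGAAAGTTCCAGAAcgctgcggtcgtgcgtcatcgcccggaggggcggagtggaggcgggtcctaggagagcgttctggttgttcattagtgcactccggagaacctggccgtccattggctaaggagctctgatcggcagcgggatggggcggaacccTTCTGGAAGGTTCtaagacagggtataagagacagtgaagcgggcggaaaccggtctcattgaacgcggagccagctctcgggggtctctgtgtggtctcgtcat
Hspb1: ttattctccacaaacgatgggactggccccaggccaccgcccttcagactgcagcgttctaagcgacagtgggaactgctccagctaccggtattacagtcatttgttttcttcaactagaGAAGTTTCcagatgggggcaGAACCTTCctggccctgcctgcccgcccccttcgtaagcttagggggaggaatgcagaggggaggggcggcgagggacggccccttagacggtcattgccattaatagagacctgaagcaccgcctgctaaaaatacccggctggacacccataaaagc
Hspa5: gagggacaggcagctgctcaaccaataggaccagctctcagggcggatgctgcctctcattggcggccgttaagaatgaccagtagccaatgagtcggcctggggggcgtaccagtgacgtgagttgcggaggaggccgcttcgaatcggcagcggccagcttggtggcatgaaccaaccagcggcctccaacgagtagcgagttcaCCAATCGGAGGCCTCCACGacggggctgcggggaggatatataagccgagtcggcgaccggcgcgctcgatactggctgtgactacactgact
In Hsph1 the 3-unit form begins 36 bases before the start and a further core 105 bases before it. In Hspa8 the 3-unit form occurs at 213 and at 55 bases before the start, and in Hspb1 separate cores lie 129 and 109 bases before it. These are matches of letters, not shown binding sites.

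All 3 arrays lay on 1 slide, at positions 3 (day 1), 2 (day 7) and 4 (sham), so position and group cannot be told apart. Spots well above background made up 77.3% (day 1), 76.9% (day 7) and 81.3% (sham) of the spots, and the 16 member probes were well above background on every array. Levels are on a log2 scale with 0 at the 75th percentile of each array's spots, and they are compared within a probe only. The scanner software put the median error of a spot between 10.0% and 10.1% of its intensity, and the median SD over the spots of a 10-spot probe was 0.08 (day 1), 0.08 (day 7) and 0.10 (sham) on the log2 scale. The neuronal list (Snap25, Syp, Eno2, neurofilaments and others) had 8 of 8 genes with a probe well above background on each array. Of the 5 hindbrain position genes listed, only Hoxa2 had a named probe. It was well above background at day 1 and in sham but not at day 7, where its single probe was at least 69.5-fold lower than in sham.

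By the brightest probe of each gene, Hmox1 was higher than in sham 1 day after labyrinthectomy and Hspa1a was lower. The other measured heat shock genes were within 2-fold by that probe. In tissue RNA, fewer cells of a type and less RNA per cell cannot be told apart. A gene was represented by its brightest probe, and it counted as measured where neither array had that probe dim or saturated, which held for 8 of the 10 members. Of the 8, 1 was at least 2-fold higher (8.26% of 6292 measured genes were) and 1 at least 2-fold lower (4.37% of all). The members' median log2 difference was -0.23, against 0.0011 for all genes, and 5 of 8 lay below 0, against 49.9% of all. By probes, 7 of 15 measured lay below 0, against 50.2% of named probes. At least 2-fold higher were 2 probes, that of Hmox1 and the second of Hspa8 (1.10). Counts of this size on 1 array per group do not set the members apart from the other genes.

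At 7 days after labyrinthectomy the measured members were lower than in sham by their brightest probes. All 8 measured members lay below 0, against 46.7% of 6261 measured genes. Hspa1a, Cryab and Hsph1 were at least 2-fold lower (5.73% of all genes were) and none was 2-fold higher (11.1% of all). The median was -0.62, against 0.05 for all genes, and the values ran from -1.63 to -0.25. The probes taken singly were less uniform, since 11 of 15 measured probes lay below 0, against 48% of named probes. In addition 1 probe, the second of Hspa1a, was at least 2-fold higher. By the mean of probes all 9 members with a value lay below 0, 2 of them at least 2-fold lower, with a median of -0.31. With the brightest probe that was never saturated, which adds Hsp90aa1, 8 of 9 lay below 0. The members were chosen with earlier results of these data known, and each group had 1 array. These counts therefore do not set the members apart from the other genes. Markers of choroid plexus, which lies in the ventricle beside these nuclei, differed between the arrays too. Folr1 (1.72) and Sostdc1 (1.86) were at least 2-fold higher at day 7 than in sham and Ttr was at -0.10, and at day 1 Kcnj13 was at 1.55 and Ttr at -1.20. The 5 choroid plexus genes summed to 0.569 at day 1, 1.26 at day 7 and 0.705 in sham, in multiples of the 75th percentile, and Kl was not well above background on any array. Their part in the members' differences was not tested.

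Between the 2 days after surgery Hmox1 was the only measured member past 2-fold. Of 9 measured members at day 7 against day 1, Hmox1 was at least 2-fold lower (5.32% of 6142 genes were) and none was 2-fold higher (6.56% of all). The median was -0.30, against 0.04 for all genes, with 8 of 9 below 0 (46.4% of all). All 16 probes were measured in this comparison, and 14 lay below 0 (47.4% of named probes). The 2 above 0 were both probes of Hspa1a. The 3 comparisons share arrays, so they are not independent of one another. The limits given for the day 7 counts against sham hold for these counts too.

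**Figure D1:**
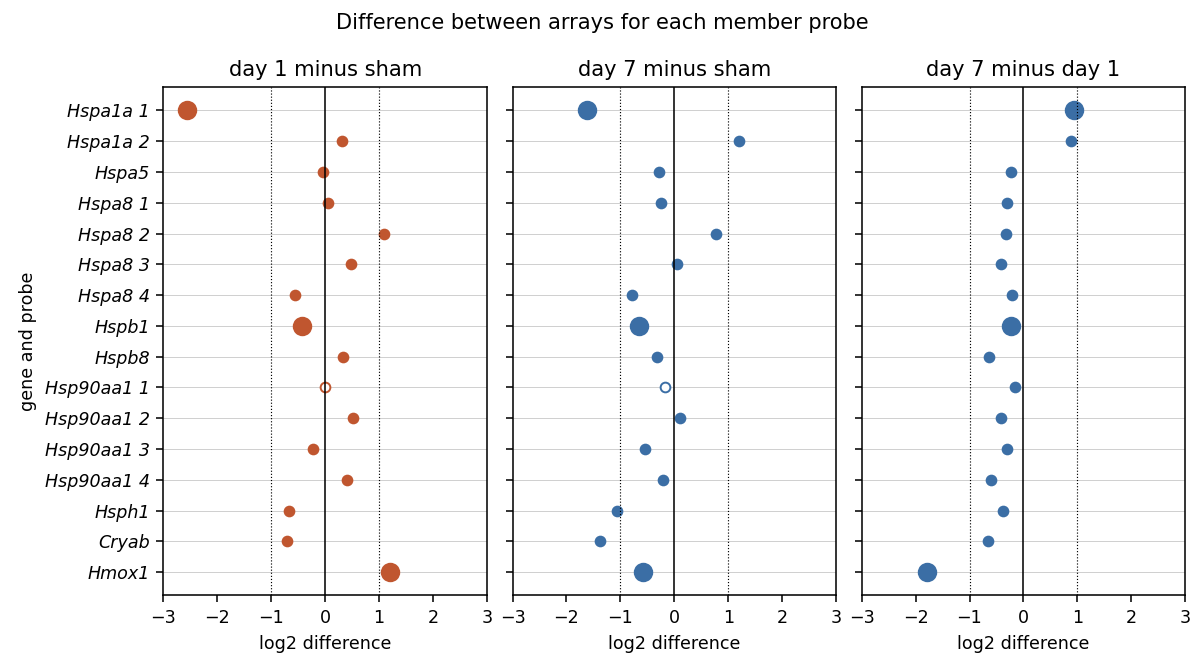
Log2 difference between arrays (x axis) for each of the 16 member probes (rows, numbered by brightness where a gene has several); large points are probes on 10 spots, open points involve a saturated spot, and dotted lines mark 2-fold. Probes of Hspa1a, Hspa8 and Hsp90aa1 lie on both sides of 0 against sham, while all probes of a gene lie on 1 side for day 7 minus day 1.

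Hspa1a, the stress-inducible HSP70, had geometric mean intensities of 244 at day 1, 504 at day 7 and 1561 in sham by its 10-spot probe. Single spots ran from 183 to 277 at day 1, with a median of 254, from 432 to 586 at day 7, with a median of 493, and from 1212 to 1980 in sham, with a median of 1551. The 3 arrays did not overlap in these spots, of which 1 at day 7 was left out as an outlier. How often other 10-spot probes show no overlap was not counted. A lack of overlap here, or for Hspb1 and Hmox1 below, therefore does not set these genes apart. The log2 difference was -2.56 at day 1 (5.88-fold lower, SE 0.10 from the spots alone) and -1.63 at day 7 (3.09-fold lower, SE 0.09 from the spots alone).

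The other Hspa1a probe, on 1 spot, disagreed. It had intensities of 404 at day 1, 807 at day 7 and 352 in sham, with log2 differences of 0.32 at day 1 and 1.20 at day 7. The 2 probes were thus 2.87 apart at day 1, where 997 genes with 2 measured probes had a median range of 0.36 and a 90th percentile of 1.33. At day 7 they were 2.83 apart, against a median of 0.44 over 977 genes and a 90th percentile of 1.45. For day 7 minus day 1 they lay together at 0.93 and 0.89, higher at day 7. Hspa1b, a near-identical neighbouring copy, had no named probe, so the signal may come from either gene and is uncertain between them. The mean of the 2 Hspa1a probes was -1.12 at day 1 and -0.21 at day 7. On both days the fall past 2-fold rested on the 10-spot probe, since the other probe lay above 0. By intensity that probe was the brighter of the 2 in sham only (1561 against 352). It was the dimmer at day 1 (244 against 404) and at day 7 (504 against 807). Its rank as brightest came from its sham value, so choosing by this rank leans toward a fall against sham. Hspa1l, another HSP70 gene, known for expression in testis, was well above background in sham only, and was at least 5.37-fold lower at day 1 and at least 5.21-fold lower at day 7 by its single probe. Each such bound sets the bright value against the lowest signal well above background on the dim array, or the dim value if higher.

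Hspa8, the HSP70 that cells make all the time, was covered by 4 probes of 1 spot each. The brightest had intensities of 20799 at day 1, 18308 at day 7 and 21811 in sham, which are log2 differences of 0.05 and -0.25 from sham. The second probe had 6495 at day 1, 5639 at day 7 and 3291 in sham, and was 2.14-fold higher at day 1 (1.10) and 1.72-fold higher at day 7 (0.78). The third gave 0.47 at day 1 and 0.06 at day 7, and the fourth, the dimmest, -0.57 and -0.79. So no direction against sham was common to the 4 probes, and their range of 1.67 at day 1 lay between the median of 0.54 and the 90th percentile of 1.83 of the 28 genes with 4 measured probes. For day 7 minus day 1 all 4 lay between -0.41 and -0.22, a range of 0.20 where 27 such genes had a median range of 0.66.

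Hspa5, the HSP70 of the endoplasmic reticulum, had intensities of 7447 at day 1, 6868 at day 7 and 8351 in sham. The log2 differences were -0.05 at day 1 and -0.28 at day 7, within 2-fold. Hsph1, the HSP110 exchange factor of HSP70, had 1312 at day 1, 1090 at day 7 and 2276 in sham. It was 1.60-fold lower at day 1 (-0.68) and 2.08-fold lower at day 7 (-1.06), just past 2-fold. Hsph1 and Hspa8 both hold the 3-unit element shown above. At day 1 Hsph1 was at -0.68, and the 4 Hspa8 probes ran from -0.57 to 1.10, the brightest at 0.05. A link between these letters and the differences was not tested.

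Hsp90aa1, the inducible cytosolic HSP90, was covered by 4 probes. The brightest was saturated in sham, with intensities of 58159 at day 1, 56392 at day 7 and 63407 in sham, so it gives no measured difference from sham. The second had 28079 at day 1, 22829 at day 7 and 21379 in sham, or log2 differences of 0.51 and 0.10. The third had 15143, 13240 and 19258 in that order, or -0.23 and -0.54, and the fourth had 2728, 1939 and 2249, or 0.40 and -0.21. The 3 measured against sham were within 2-fold, and all 4 were lower at day 7 than at day 1, by log2 differences from -0.61 to -0.16.

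**Figure D2:**
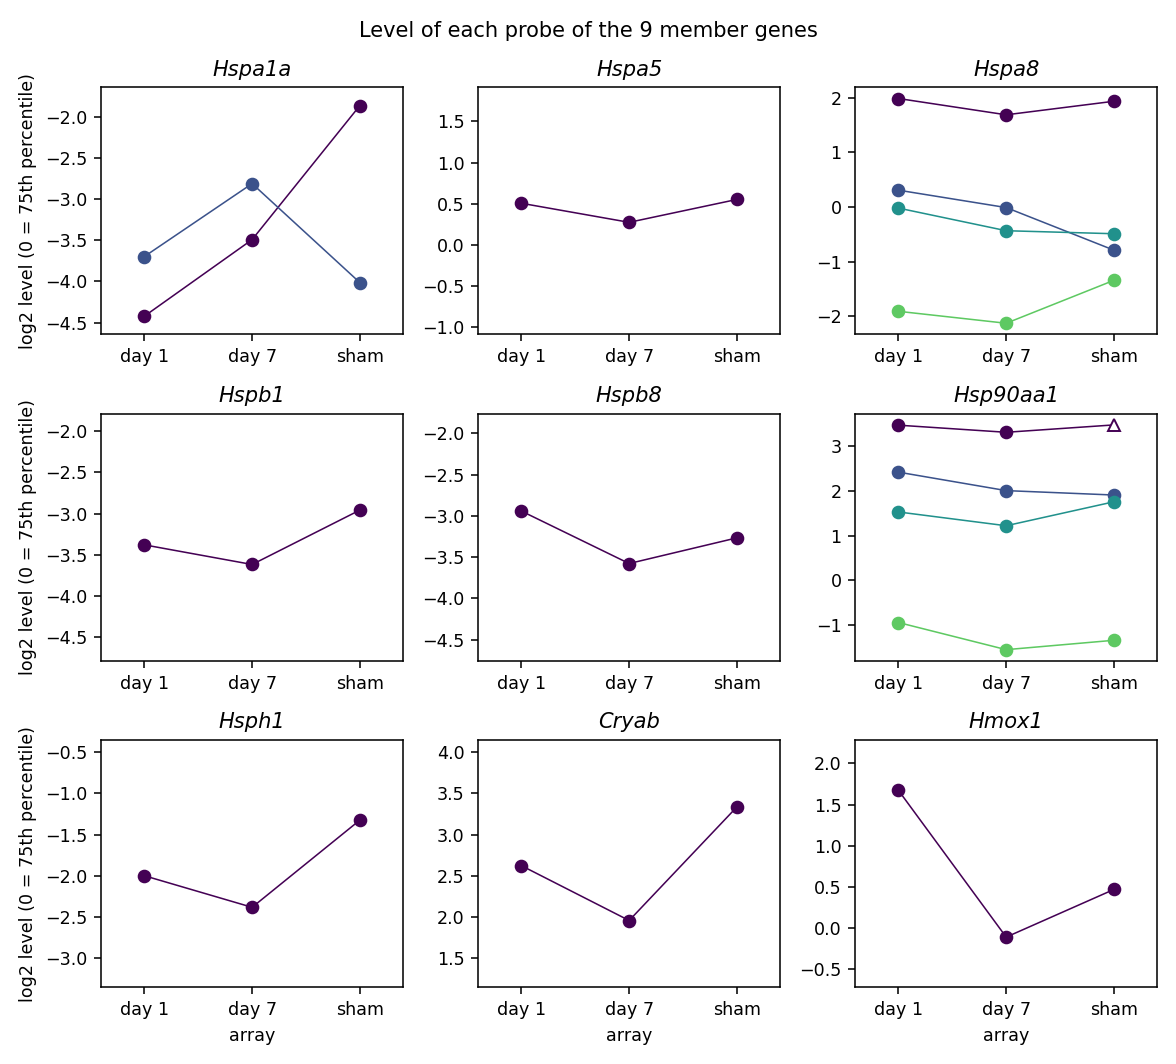
Level of each probe (y axis, log2 of processed intensity with 0 at the array's 75th percentile) on the day 1, day 7 and sham arrays (x axis), 1 panel per gene and 1 line per probe, with an open triangle for a saturated spot; each panel spans at least 3 log2 units. The Hspa1a probes run in opposite directions against sham, Cryab and Hsph1 are highest in sham, and Hmox1 is highest at day 1.

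Cryab, the small heat shock protein αB-crystallin, is in brain made mainly by oligodendrocytes and astrocytes. It had intensities of 32293 at day 1, 22039 at day 7 and 57478 in sham on its single spot. It was 1.64-fold lower at day 1 (-0.71) and 2.60-fold lower at day 7 (-1.38), and sham was the brightest array by a clear distance. Of 6 oligodendrocyte markers with a probe, all well above background on each array, Mbp was at least 2-fold lower at day 7 (-1.29, and -0.997 by another probe) and 5 were within 2-fold, with a list median of -0.16 at day 1 and -0.29 at day 7. Marker levels were also summed over the same probes on each array, those with a value on all 3 and saturated on none, in multiples of the 75th percentile, so that bright probes weigh most. The 6 oligodendrocyte genes summed to 20.4 at day 1, 16.4 at day 7 and 23.6 in sham. Of 7 astrocyte markers, all well above background, 6 could be summed (Gja1 was saturated), to 9.74 at day 1, 10.1 at day 7 and 9.58 in sham. Of the 6 measured, S100b was at least 2-fold higher at day 1 (3.19), with a list median of 0.02. At day 7 S100b (1.89) and Aqp4 (1.25) were higher and 4 were within 2-fold, Gfap at -0.26 among them, with a median of 0.52, and S100b was at -1.30 at day 7 against day 1. Of 8 neuronal markers, all well above background, 6 could be summed (Syp and Eno2 were saturated), to 31.2 at day 1, 23.0 at day 7 and 33.7 in sham. At day 7 the neurofilaments Nefh, Nefl and Nefm were at least 2-fold lower and 3 of the 6 measured were within 2-fold, with Snap25 at 0.47 and Stmn2 at 0.20, and at day 1 all 6 were within 2-fold. The part of these markers in the Cryab difference was not tested.

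Hspb1, the small heat shock protein HSP27 that binds actin and is known to be induced in injured neurons and reactive astrocytes, was within 2-fold. Its 10 spots had geometric mean intensities of 504 at day 1, 462 at day 7 and 732 in sham. They ran from 475 to 534 at day 1, from 440 to 491 at day 7 and from 640 to 789 in sham, so the sham spots lay above all others and the intensities of the 2 days overlapped. After scaling to the 75th percentile of each array the spots of the 2 days no longer overlapped, with a log2 difference of -0.24 at day 7 against day 1. The log2 differences from sham were -0.42 at day 1 (SE 0.03 from the spots alone) and -0.66 at day 7 (SE 0.03 from the spots alone). Spots of 1 array share 1 RNA sample, so this error leaves out rats, dissection and labelling. Hspb8, a small heat shock protein that works with Bag3 in clearing aggregates, had intensities of 683 at day 1, 475 at day 7 and 592 in sham. These are log2 differences of 0.33 at day 1 and -0.31 at day 7, and of -0.64 at day 7 against day 1.

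Hmox1 was the member with the largest difference between the days. Its 10 spots had a median intensity of 16818 at day 1 (14940 to 19652), 5278 at day 7 (4869 to 5756) and 7840 in sham (7484 to 8602). The day 1 spots lay above all others and the day 7 spots below all others. Hmox1 was 2.30-fold higher at day 1 than in sham (1.20, SE 0.05 from the spots alone), 1.49-fold lower at day 7 than in sham (-0.58, SE 0.03 from the spots alone), and 3.44-fold lower at day 7 than at day 1 (-1.78, SE 0.05 from the spots alone).

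Markers of cells that handle heme were read beside it. Of 6 microglia and macrophage markers with a probe, P2ry12 had no value at day 1, where its only spot was left out as an outlier. The other 5 summed to 0.727 at day 1, 1.42 at day 7 and 1.45 in sham in multiples of the 75th percentile. They did not all differ from sham in 1 direction. At day 1 Aif1 was at -1.08 and Csf1r at -0.93, Cd68 was not well above background (at least 3.19-fold lower than in sham) and neither was Itgam (at least 1.26-fold lower). Cx3cr1, which was not well above background in sham, was at least 3.78-fold higher at day 1 and at least 3.05-fold higher at day 7. At day 7 the 4 measured were within 2-fold, with a median of -0.01. Of the red blood cell genes, Alas2, the first heme synthesis enzyme in red cell precursors, was at 1.02 at day 1 and 1.29 at day 7, and beta-globin Hbb at 0.21 and -0.07. Their part in the Hmox1 difference was not tested.

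**Figure D3:**
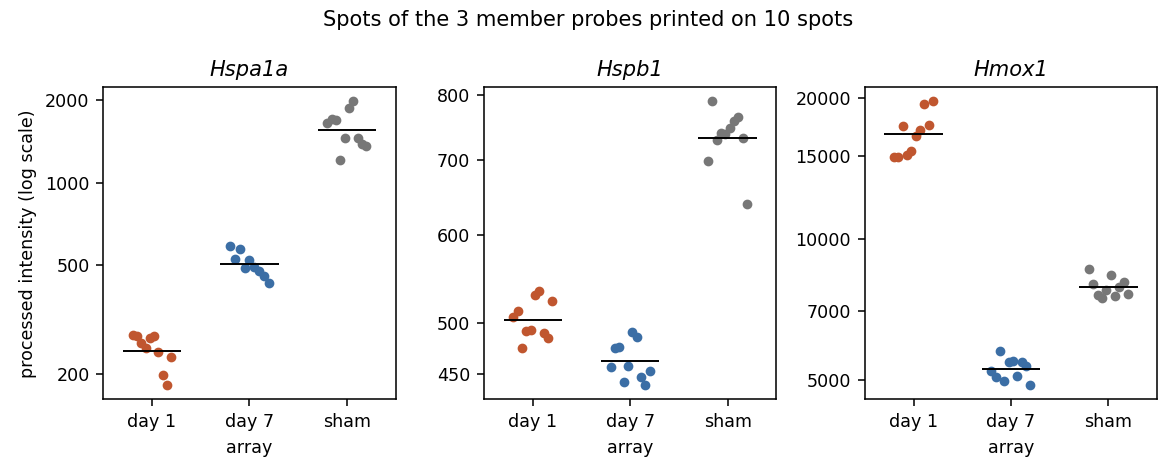
Processed intensity of each kept spot (y axis, log scale) for the 3 member probes printed on 10 spots, on the day 1, day 7 and sham arrays (x axis), with the geometric mean as a bar; the spots show error within an array only. These intensities are not scaled between arrays. The arrays do not overlap for Hspa1a and Hmox1, day 1 and day 7 overlap for Hspb1, and of the 3 genes only Hmox1 has its highest spots at day 1. The share of other 10-spot probes without overlap was not counted.

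The genes with the most similar pattern over the 3 arrays were looked up for each member past 2-fold. Likeness was the root mean square distance of values centred over the arrays, by brightest probes. The 1527 candidates were other named genes measured on all 3 arrays, with at least 1 difference past 2-fold and no provisional symbol. Closest to Hmox1 were Syt17 (distance 0.0034), Akr1b10 (0.026) and Anxa5 (0.060), with Akr1b10, an aldo-keto reductase, at 1.21 at day 1 and -0.63 at day 7. Closest to Cryab were Ndufs4 (0.021), Hcn4 (0.026) and Sdad1 (0.036), and closest to Hsph1 were Col4a4 (0.0051), Sun1 (0.017) and Nes (0.020). Closest to the brightest Hspa1a probe were Fmo2 (0.12), Nhlrc1 (0.14) and Ncs1 (0.17), all lower on both days. A likeness over 3 arrays describes these arrays only, and how close the nearest matches of other genes come was not counted.

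Other chaperones of the cytosol and mitochondria, with their regulators, were mostly within 2-fold, as most measured genes were. Of 46 listed genes 28 had a probe. Of 26 measured at day 1, 1 was at least 2-fold higher (8.26% of all genes were) and 2 lower (4.37% of all). Their median was -0.07. The synaptic vesicle co-chaperone Dnajc5 was at 1.32, the mitochondrial co-chaperone Dnaja3 at -1.47 and the kinase-specific HSP90 partner Cdc37 at -1.13. At day 7 none of 26 was past 2-fold against sham, where 11.1% of all genes were higher and 5.73% lower. The median was -0.25, and Dnaja3, no longer well above background, was at least 3.49-fold lower. Dnajc5 was at -2.05 at day 7 against day 1. Bag3, a partner of Hspb8 and a gene that HSF1 also switches on, was at 0.40 at day 1 and -0.08 at day 7, and the constitutive HSP90 gene Hsp90ab1 at 0.14 and -0.02. The mitochondrial chaperonin Hspd1 and its partner Hspe1 were picked after their values were seen. Hspd1 lay below 0 at day 7 by all 4 of its probes (-0.39, -0.53, -0.46 and -1.08), and Hspe1 was at -0.34.

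Genes of the endoplasmic reticulum, which share the compartment of Hspa5, were also mostly within 2-fold. Of 21 measured among 28 listed, 1 was higher and 1 lower on each day against sham, with medians of -0.25 at day 1 and -0.15 at day 7, and at day 7 against day 1 none was past 2-fold (median 0.17). The higher one was Creld2, a secreted protein of the stressed endoplasmic reticulum, at 3.84 at day 1 and 4.06 at day 7. The lower one was Eif2ak3 (PERK), a sensor of unfolded proteins, at -2.07 and -1.86. Ddit3 and Hsp90b1 were also picked after their values were seen. Ddit3, a late target of the unfolded protein response, was at 0.17 and 0.15, and Hsp90b1, the HSP90 of this compartment, at -0.51 and -0.28 by its brighter probe and at -0.22 and 0.50 by the other. Of Hyou1, another HSP70-like protein there, the brighter probe gave -0.14 at day 1 and the other -1.15.

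Genes of heme, iron and oxidative stress were mostly within 2-fold. Of 28 listed genes 23 had a probe. By brightest probes, of 19 measured at day 1 none was at least 2-fold higher (8.26% of all genes were). Gsr, glutathione reductase, was lower (-1.77, with 4.37% of all genes lower), and the list median was -0.03. At day 7 catalase Cat (3.43) and the glutathione synthesis subunit Gclc (1.08) were higher and Gsr lower (-1.95), with a median of -0.05. Among all genes 11.1% were higher and 5.73% lower there. Against day 1, Cat was at 3.20 and Gclc at 1.02 at day 7, and none was lower. The Gclc values were close to 2-fold and fell short of it under several other scalings, down to 0.88 against sham. Nqo1, a standard NRF2 target, was well above background in sham only and was at least 1.52-fold lower at day 1. The constitutive heme oxygenase Hmox2 was at -0.14 at day 1 (-0.23 by another probe) and -0.22 at day 7 (-0.62). Biliverdin reductase Blvra was at -0.48 and -0.05. The ferritin heavy chain Fth1, which stores the iron that heme releases, was at 0.41 (0.43 by another probe) and 0.20 (0.46). Txnrd1 and Ftl1 were picked after their values were seen, since their probes disagreed. At day 1 the Txnrd1 probes were at 0.35, -0.09 and -1.66, and the Ftl1 probes ran from -0.37 to 0.41. Each of Creld2, Eif2ak3, Gsr, Cat, Gclc and Dnajc5 rested on 1 named probe.

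**Figure D4:**
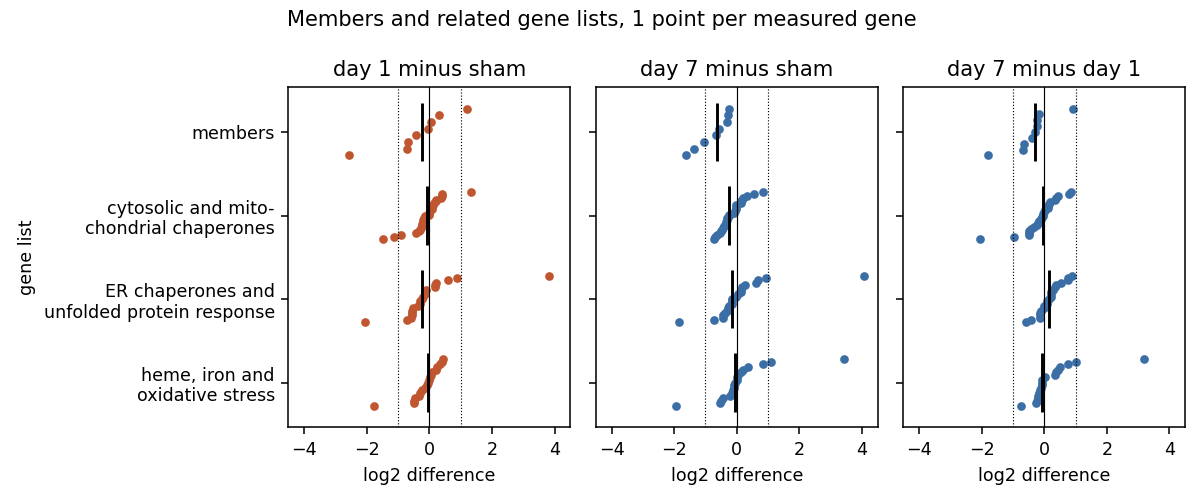
Log2 difference between arrays (x axis) for the members and for the 3 related gene lists (rows), with 1 point per measured gene by its brightest probe, a bar at the median and dotted lines at 2-fold. The members' median is -0.62 at day 7 minus sham, and the medians of the other lists there lie between -0.25 and -0.05.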

How the data were processed

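RNA of rat vestibular nuclei was read on 3 Agilent arrays in 1 colour, with Cy3 label made from 1 µg of RNA, per the labels. Per the file headers, Feature Extraction 10.7.3.1 made the deposited intensity values, which are linear and background-subtracted, together with the other deposited values, flags per spot of 0 or 1. The authors' series table holds 34687 of 41012 probes, on the intensity scale. It matched 47 of 48 member values within 1% (tolerance), with no scaling between arrays and medians of 1544 (day 1), 1688 (day 7) and 1596 (sham). How the authors filtered probes is not stated in these sources.

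Here log2 intensity minus each array's 75th percentile (5242 at day 1, 5676 at day 7 and 5692 in sham) was used. Control spots and flagged outliers (224 at day 1, 193 at day 7 and 163 in sham) were dropped, and spots of a probe averaged. A probe counted as well above background or saturated where at least 0.5 of its spots were. RefSeq accessions were matched to the GRCr8 table, which named 10768 probes. The files hold no gene name column, so members were found by accession only. Genes named are the members, up to 3 genes of each related list past 2-fold per direction, genes needed to describe a member, the 3 nearest patterns, and those said to be picked later. The members and lists were chosen with earlier results of these data known. Gene summaries were tested on simulated data made from the sham array. There all probes of a gene had the same added difference, and the flags were equal on all arrays. That test therefore does not cover probes of a gene that disagree, or flags that differ between arrays. Tools were Python 3.11.15, numpy 2.4.6, pandas 2.3.3, matplotlib 3.10.9, R 4.3.3 and limma 3.58.1. Alternatives were other scalings, normexp, filters on dim probes, outlier and saturated spots, and the probe used for a gene.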

Additional observations from a re-analysis of the deposited data

Results flagged for a closer look

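Hmox1 differed from sham in opposite directions at the 2 times, by 1.20 on the log2 scale at day 1 and by -0.58 at day 7, on 10 spots of 1 probe per array. The difference between the times was not tested, since each time has 1 array.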

How the results depend on the processing

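Each result was recomputed under 12 alternatives, of which 2 were chosen after seeing the data (normexp on median signals, since the files hold no mean signal and the planned normexp on it was not run, and the brightest probe that was never saturated). All 48 member values were well above background, and saturation in sham limited Hsp90aa1. Low signal also mattered for the 10-spot Hspa1a probe at day 1, with an intensity of 244 and a scanner error of 13.5%. Its difference from sham at day 1 was -2.56 as reported and -2.19 under normexp. Of 25 member differences, 23 kept their sign under every alternative run, the exceptions being Hspa5 and Hspa8 at day 1, both near 0. No alternative used the other Hspa1a probe alone, which lay above 0 against sham on both days. Hsp90aa1 against sham is not among the 25, since its brightest probe was saturated there. Leaving out the filter on dim probes could not change a member's sign, as all were well above background. Hmox1 at day 1 ran from 1.09 to 1.23 and at day 7 against day 1 from -1.81 to -1.67, Cryab at day 7 from -1.51 to -1.30, and Hsph1 at day 7 from -1.19 to -1.01, all past 2-fold throughout. Among the other genes named, Gclc at day 7 ran from 0.88 to 1.13 and at day 7 against day 1 from 0.72 to 1.13, Akr1b10 at day 1 from 0.98 to 1.22, Nes at day 7 from -1.22 to -0.95 and Sun1 at day 7 from -1.31 to -0.46. Hspa1a rested on its brighter probe: the mean of its probes gave -1.12 at day 1 and -0.21 at day 7. The number of members past 2-fold at day 1 was 1 with the filter to brighter probes, which left out Hspa1a, and at day 7 against day 1 it was 2 without scaling, where Hspa1a reached 1.04. At day 7 against sham, 2 of 9 members were at least 2-fold lower by the mean of probes, with a median of -0.31. Brighter probes gave 2 of 5 lower. The brightest probe never saturated gave 8 of 9 members below 0, with a median of -0.58. Among all genes, the counts past 2-fold were 795 (day 1), 1057 (day 7) and 730 (day 7 against day 1), and became 1569, 1983 and 1571 with no filter on dim probes, which tests more genes, and 289, 387 and 312 with brighter probes, which tests fewer. Higher genes made up 65.4% (day 1), 66.0% (day 7) and 55.2% (day 7 against day 1) of these calls. The share at day 1 was 56.2% under quantile normalization, 56.2% under cyclic loess, 55.4% under median scaling and 53.6% without scaling, and at day 7 it was 56.3%, 55.2% and 54.2% under the first 3 of these. Day 7 against day 1 gave 65.9% without scaling, where the median of all genes was 0.15, and -0.12 at day 1 against sham. Median scaling put the median of all genes at -0.10 at day 1 and -0.08 at day 7 against sham. The cause of these shifts was not tested. No paired analysis was possible because each group had 1 array.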
